A study of Mus musculus with 24 samples.

Results

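The genes described here are the G1 cyclins, the kinases that they bind and members of the retinoblastoma (Rb) family, measured by RNA-seq in LSK-SLAM cells of young and old mice. They were taken by gene name from the table of normalized read counts, in which all 10 listed genes had a row among 18762 genes. They are *Ccnd1*, *Ccnd2* and *Ccnd3* (cyclins D1, D2 and D3), *Cdk4* and *Cdk6*, *Ccne1* and *Ccne2* (cyclins E1 and E2), *Cdk2*, *Rb1* and *Rbl1* (p107). The rule used names alone and set no threshold on values.

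LSK-SLAM cells are a bone marrow fraction enriched for hematopoietic stem cells (HSCs), sorted as lineage-negative, Sca-1-positive, Kit-positive cells that carry the SLAM marker CD150 and lack CD48. They came from 5 young and 7 old Wt C57BL/6 mice, for which the labels name no further allele or treatment. The sample labels give ages of 4 to 5 months for young and 20 to 22 months for old mice. A supplementary figure legend of the authors names somewhat higher ages for both groups. RNA of 15000 cells was isolated per library, 300 pg of ribosomal-depleted RNA entered the TotalScript kit, and the 24 labelled samples were 2 for each of 12 mice, of which each mouse was counted once.

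Entry into the cell cycle is controlled in G1. Mitogenic signals raise D-type cyclins, which bind CDK4 and CDK6 and begin the phosphorylation of Rb family proteins, the so-called pocket proteins. Phosphorylated pocket proteins release E2F transcription factors, which drive the genes of the G1/S step, cyclin E among them, and cyclin E with CDK2 completes the phosphorylation. Most HSCs rest outside the cycle, and loss of D-type cyclins or of their kinases impairs hematopoiesis.

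The unit throughout is the normalized read count, in which the authors divided the reads of a gene by the scaled size of the library in M reads, with M for mega. Whole reads could be recovered from it, and libraries held between 0.861 and 5.12 M reads on genes. Every mouse label ends in a letter A or B of which the meaning is not given in the sources used here. The 6 mice with letter A (young mice 1 and 2 and old mice 1, 5, 6 and 7) all had fewer reads than the 6 mice with letter B. *Gm10800* alone took from 1.60% to 18.6% of the reads of a mouse. Old mice 5 and 7 were the shallowest libraries, with 1.13 and 0.861 M reads, and many but not all results are also given without them.

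Of the markers of the sorted cells, all 7 had a row, and their summed normalized read count was 2471 to 4159 in young and 1263 to 4436 in old mice. *Cd48*, which the gate selects against, lay between 0.583 and 11.8 over all mice. Summed neutrophil and monocyte markers (7 of 7 with a row) were 125 to 466.2 in young mice and 73.5 to 2242 in old ones, erythroid markers (5 of 5) 91.8 to 205 and 55.7 to 671, lymphocyte markers (5 of 6) 15.3 to 64.4 and 10.4 to 112, and megakaryocyte markers (4 of 5) 127 to 243 and 94.7 to 221. None of these markers was at 0 in all mice. In bulk samples, fewer cells of a type and less RNA per cell cannot be told apart.

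The sequence context of the genes was read from the RefSeq promoter table (build GRCm38.p6, 250 bases before to 50 after a start). It matched 6 of the 10 genes with 7 promoters. The E2F word, a T run followed by a GC-rich core, was searched in its 4 forms TTTCCCGC, TTTGGCGC, TTTCGCGC and TTTGCCGC on both strands, and 744 of all 32851 promoters (2.26%) held at least 1 of them. The promoters of *Rbl1* and *Cdk2* held 1 each, while those of *Cdk4*, *Cdk6*, *Ccne1* and *Ccnd3* held none of these letters. The 2 stretches are shown because they are the matches to the E2F word among these genes, with the word in capitals on the strand of the gene.

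Rbl1: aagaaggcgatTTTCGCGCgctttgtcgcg

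Cdk2: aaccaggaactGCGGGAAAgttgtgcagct

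The *Rbl1* stretch lies at chr2:157204534-157204563 on the minus strand, and its word begins 18 bases before the RefSeq start. The *Cdk2* stretch lies at chr10:128705173-128705202 on the minus strand and holds the word on the opposite strand. A match of letters is a description of the window and shows no binding.

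Per kilobase of exon, the kinases of the D-type cyclins and cyclin D2 were the most abundant of these transcripts. *Cdk4* had the highest level, with a mean of 76.6 normalized reads per exon kb over all mice, above 98.0% of 12351 genes tested, and exceeded the next gene in 12 of 12 mice. *Ccnd2* (47.3) and *Cdk6* (46.1) followed. Their order was not the same in all mice, as *Ccnd2* was the higher in 8 of 12, and their difference was not tested. Each of these 3 genes exceeded *Ccnd1*, the next in order, in the mean.

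*Ccnd1* (24.2 per exon kb) and *Rbl1* (24.1) formed the next pair, with *Ccnd1* higher in 7 of 12 mice. *Ccnd3* (17.9), *Rb1* (15.97) and *Cdk2* (15.05) came next, also in an order that varied between mice. *Ccnd3* exceeded *Rb1* in 7 and *Rb1* exceeded *Cdk2* in 9 of 12 mice, and these differences were not tested. The E-type cyclins were lowest, with *Ccne2* at 9.84 and *Ccne1* at 5.54, and *Ccne1* stood above 36.6% of the genes only. Exon lengths are unions over all annotated transcripts, so that genes with long alternative ends appear lower than their transcripts are.

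**Figure D1:**
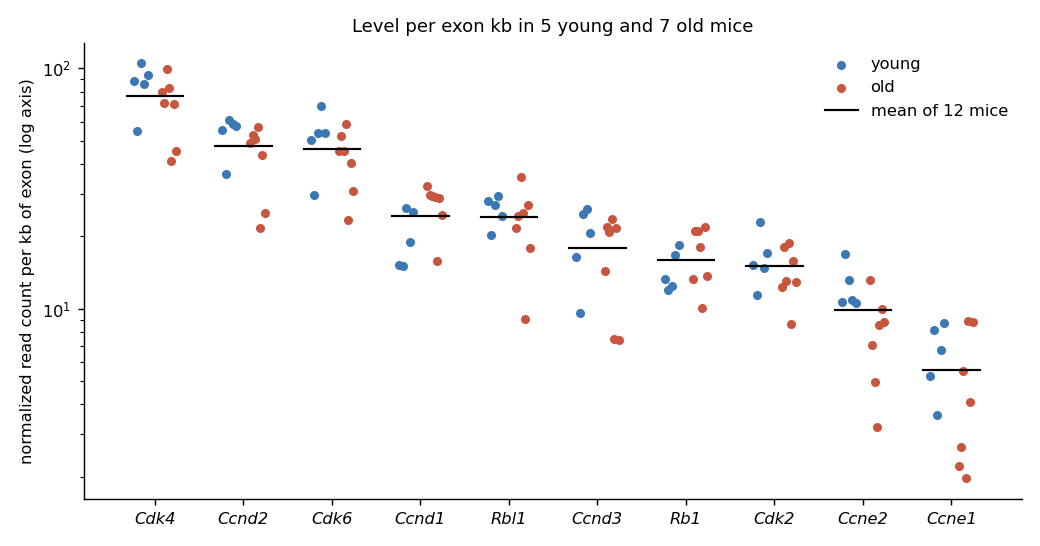
Normalized read count per kb of exon (log axis) of the 10 genes, ordered by their mean, with a point for each of 5 young (blue) and 7 old (red) mice and a black line for the mean of all mice. *Cdk4* stands at 76.6, *Ccnd2* and *Cdk6* follow at 47.3 and 46.1, and *Ccne1* is lowest at 5.54.

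Age was compared first for each gene alone. Between young and old mice, 0 of the 10 genes passed an adjusted p of 0.05 (limma on log2 of the normalized read count plus 1, Benjamini-Hochberg over 12354 genes), with 13 of all genes (0.105%) called. At an unadjusted p under 0.05 stood 1 of the 10 genes, *Ccne2*, and 3.95% of all genes. edgeR and DESeq2 on the recovered reads also called 0 of the 10, beside 0.146% and 0.469% of all genes. Each of the 30 alternative settings called 0 of them too, though *Ccne1* was not tested at a minimum mean of 30. The log2 difference was negative for 8 and positive for 2 of the genes, with a median of -0.28 against -0.02 over all genes, of which 52.3% were negative. Without old mice 5 and 7 the split was 6 and 4, and the median was -0.05. In that fit 4 of the 10 genes (*Ccnd1*, *Ccne1*, *Ccne2* and *Rb1*) had an unadjusted p under 0.05 and 0 were called (limma), beside 6.14% and 0.397% of all genes.

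**Figure D2:**
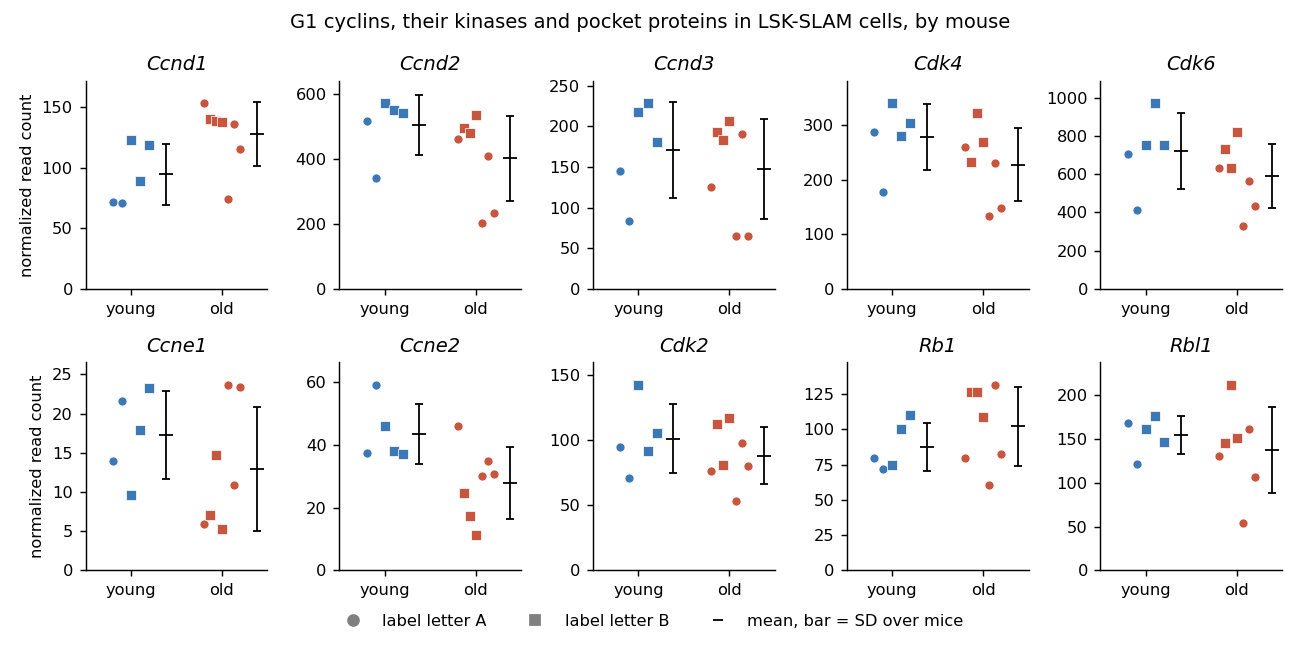
Normalized read count of each gene in each mouse (linear axes from 0), young in blue and old in red, with circles for label letter A and squares for letter B, and the mean with its SD. The groups overlap for all 10 genes, 5 of 7 old mice lie above every young mouse for *Ccnd1*, and 6 of 7 lie below every young mouse for *Ccne2*.

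Among the D-type cyclins, *Ccnd1* (chr7:144929931-144939925, minus strand, GRCm38), the cyclin that many growth signals induce, had the largest positive difference. Its normalized read count was 71.6, 70.7, 123, 89.1 and 119 in young mice 1 to 5, and in old mice it was lowest at 74.2 in old mouse 5, 137 in the median mouse and highest at 153 in old mouse 1. In 5 of 7 old mice it was above all young mice, and old mice 5 and 7 lay within the young range. The means were 94.7 ± 25.2 (SD, n = 5) and 128 ± 26.1 (SD, n = 7), a ratio of 1.35 (two-sided exact permutation test, p = 0.0619). In limma the log2 difference was 0.44 ± 0.21 (SE), with a 95% interval from -0.01 to 0.88, an unadjusted p of 0.0525 and an adjusted p of 1.0.

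The difference of *Ccnd1* was present within each letter. In letter A the old mean was 1.68 times and in letter B 1.26 times the young mean, and in neither letter did the ages overlap (exact permutation tests, p = 0.133 and 0.1, the latter the smallest possible there). The share of all genes without overlap within a letter was not counted, for this gene or for those below. With the letter as a covariate the log2 difference in limma was 0.51 ± 0.19 (SE, adjusted p = 0.611), in a fit that called 0.299% of all genes. Without old mice 5 and 7 it was 0.61 (adjusted p = 0.262). Of the exon bases of *Ccnd1*, 23.4% overlap *Oraov1* on the opposite strand, and whether the counting used strand is not given in the sources used here. *Oraov1* itself had 33.6 ± 6.73 in young mice (SD, n = 5) and 36.9 ± 6.57 in old ones (SD, n = 7), and the part of shared reads in the difference of *Ccnd1* was not tested.

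*Ccnd2* (chr6:127125162-127152193, minus strand), the D-type cyclin with the highest level here, had a lower mean in old mice. Young mice 1 to 5 had 519, 341, 572, 552 and 541 normalized reads, and old mice had a lowest value of 203, a median of 461 and a highest of 537. Old mice 5 and 7 (203 and 235) stood below all other mice, the other 5 old mice lay between 409 and 537, and young mouse 2 stood far below the other young mice. The means of 505 ± 93.5 (SD, n = 5) and 403 ± 132 (SD, n = 7) did not differ beyond their spread (exact permutation test, p = 0.174), and the 95% interval of the log2 difference in limma ran from -0.95 to 0.18 around -0.39. That difference was -0.23 without old mouse 5 alone and -0.07 without both old mice 5 and 7. Within letter B, the 3 old mice were all below the 3 young mice, with a ratio of 0.908 (exact permutation test, p = 0.1, the smallest possible).

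*Ccnd3* (chr17:47505051-47599691, plus strand), the third D-type cyclin and the one best known in lymphoid cells, had 171 ± 58.8 in young mice (SD, n = 5) and 147 ± 61.4 in old ones (SD, n = 7) (exact permutation test, p = 0.506). Its lowest values were 65.2 and 65.5 in old mice 7 and 5, followed by 84.1 in young mouse 2, all with letter A. The log2 difference of -0.27 (limma, 95% interval -0.96 to 0.42) became 0.13 without old mice 5 and 7.

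The scaling of a library cancels in a ratio between genes of a mouse, so 5 such ratios of related genes were formed. Log2 ratios used the normalized read counts plus 1, where scaling cancels apart from the added 1. Linear ratios used the counts without it. The ratio of *Ccnd1* to *Ccnd2* separated the ages completely. It was 0.138, 0.207, 0.215, 0.161 and 0.220 in young mice 1 to 5 on the linear scale, and lay between 0.256 (old mouse 4) and 0.492 (old mouse 7) in old mice. All 7 old mice were thus above all 5 young mice.

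The mean linear ratio was 0.188 ± 0.0366 in young mice (SD, n = 5) and 0.336 ± 0.0783 in old ones (SD, n = 7). On the log2 scale the old mice were higher by 0.82 (exact permutation test, two-sided, with 792 splits, p = 0.00126, the smallest that they can give, and 0.00631 after Benjamini-Hochberg adjustment over the 5 ratios). The adjustment covers these 5 ratios only. It does not cover the choice of the genes, which was made with earlier results of these data known. For scale, the ratio to *Ccnd2* separated the ages without overlap for 236 of the 12353 other genes (1.91%), and the ratio to *Ccnd1* for 3.09% of them. Of normalized read counts by themselves, 0.461% of the genes tested did so, and none of the 10 genes was among them.

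The ratio of *Ccnd1* to *Ccnd2* was also higher in old mice within each letter, by 1.14 on the log2 scale in letter A (exact permutation test, p = 0.0667) and by 0.48 in letter B (p = 0.1), where each p is the smallest possible for so few mice. Exchanging mice only within letters gave p = 0.00333, again the smallest possible. Without old mice 5 and 7 the difference was 0.67 (exact permutation test, adjusted p = 0.0397). The reads behind the ratio numbered 94 to 707 for *Ccnd1* and 191 to 2916 for *Ccnd2*. Among the old mice the log2 ratio fell as depth rose, from -1.02 in old mouse 7 (0.861 M reads) to -1.96 in old mouse 4 (5.00 M reads). In young mice it was -2.26 in the shallowest library (young mouse 2, 2.05 M reads) and -2.21 in the deepest (young mouse 3, 5.12 M reads). The part of depth in the age difference of this ratio was not tested. The overlap of *Ccnd1* with *Oraov1* described above applies to the ratio too. With both strands searched, 21.6% of the 50-base words of *Ccnd1* transcripts occur in other transcripts, all of them in *Oraov1*. For *Ccnd2* it was 6.31%, the largest part in *Gm43126* (3.44%). On the opposite strand, *Gm43126* and *9330179D12Rik* overlap 3.95% and 3.91% of the exon bases of *Ccnd2*. Neutrophil and monocyte markers had a median log2 age difference of 2.34 in letter A and of -1.35 in letter B. The part of cell composition in the difference of the ratio was not tested.

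Expressed as shares of the summed D-type cyclin level per exon kb, *Ccnd1* made up 21.7% ± 3.49 in young mice (SD, n = 5) and 32.4% ± 5.60 in old ones (SD, n = 7). *Ccnd2* made up 58.0% ± 3.66 in young and 48.9% ± 2.95 in old mice, so that it remained the leading D-type cyclin in the mean of both ages. The ages did not overlap for either share, with at most 24.7% in young and at least 26.6% in old mice for *Ccnd1*, and at least 54.4% and at most 52.0% for *Ccnd2*. *Ccnd3* held 20.4% ± 3.51 and 18.7% ± 3.79, with overlapping ranges. The shares restate the same values as the ratios and were not tested separately.

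The ratio of *Ccnd3* to *Ccnd2* did not differ between the ages beyond its spread. The log2 difference was 0.11 (exact permutation test, p = 0.510, adjusted p = 0.850), with values of -2.01 to -1.27 in young mice and -1.87 to -1.10 in old ones. In 1 of 7 old mice this ratio was above all young mice.

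**Figure D3:**
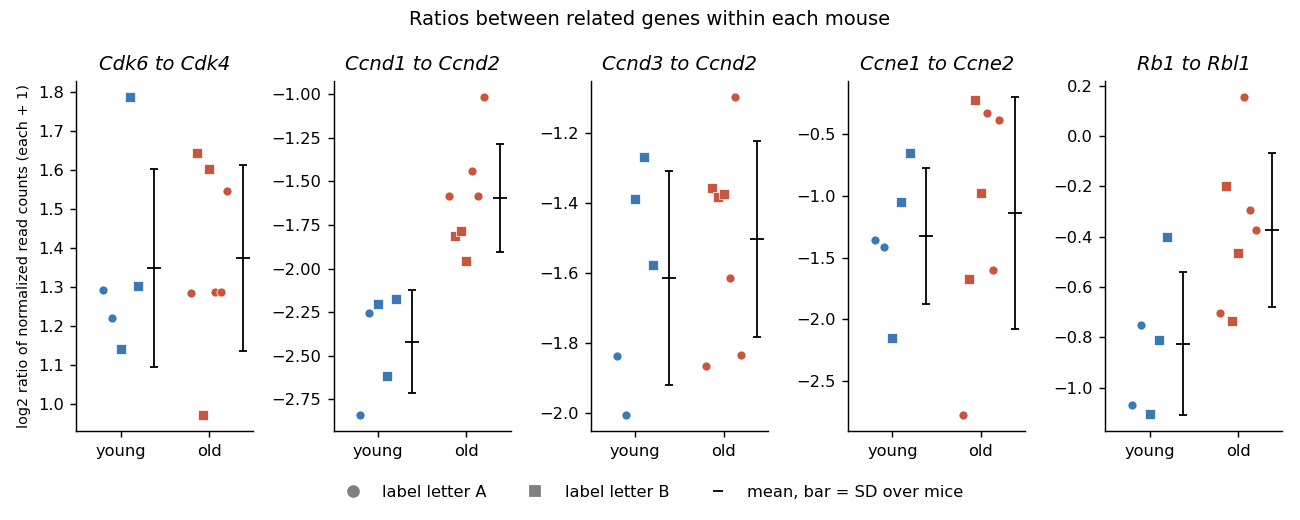
Log2 ratio of the normalized read counts (each plus 1) of related genes within each mouse, young in blue and old in red, circles for label letter A and squares for letter B, with the mean and SD. The ratio of *Ccnd1* to *Ccnd2* reaches at most -2.18 in young mice and at least -1.96 in old mice, and the other 4 ratios overlap.

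The kinases of the D-type cyclins were lower in the mean of old mice by less than their spread. *Cdk4* (chr10:127063534-127067920, plus strand) had 278 ± 61.0 in young mice (SD, n = 5) and 228 ± 67.0 in old ones (SD, n = 7) (exact permutation test, p = 0.208). *Cdk6* (chr5:3341485-3531008, plus strand), the kinase whose abundance is known to bear on how fast HSCs leave quiescence, had 706, 415, 752, 971 and 754 normalized reads in young mice 1 to 5. In old mice it ranged from 327 to 818, with a median of 632, and the means were 719.7 ± 199 (SD, n = 5) and 591 ± 168 (SD, n = 7) (exact permutation test, p = 0.246).

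The lowest *Cdk6* values were those of old mouse 5, young mouse 2 and old mouse 7, and the same 3 mice were lowest for *Cdk4*. The 95% intervals of the log2 differences in limma were -0.81 to 0.19 for *Cdk4* and -0.88 to 0.30 for *Cdk6*. Without old mouse 5 the differences were -0.20 and -0.16, and without both old mice 5 and 7 they were -0.06 for *Cdk4* and -0.05 for *Cdk6*. The ratio of *Cdk6* to *Cdk4*, both of which pair with D-type cyclins, was 2.59 ± 0.499 in young mice (SD, n = 5) and 2.63 ± 0.421 in old ones (SD, n = 7) on the linear scale, with a log2 difference of 0.03 (exact permutation test, p = 0.879). Of the exon bases of *Cdk4*, 19.7% overlap *Tspan31* on the opposite strand, which had 56.6 ± 13.1 (SD, n = 5) and 59.9 ± 27.2 (SD, n = 7).

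Of the E-type cyclins, *Ccne2* (chr4:11191351-11204779, plus strand) had the largest difference of all 10 genes. Its normalized read count was 37.3, 59.1, 46.1, 38.1 and 37.0 in young mice 1 to 5, and in old mice it was lowest at 11.3 in old mouse 4, 29.99 in the median mouse and highest at 46.1 in old mouse 1. Of the 7 old mice, 6 were below all young mice, and old mouse 1 lay within the young range. The means were 43.5 ± 9.50 (SD, n = 5) and 27.9 ± 11.5 (SD, n = 7), a ratio of 0.640 (exact permutation test, p = 0.0328). In limma the log2 difference was -0.71 ± 0.30 (SE), with an unadjusted p of 0.0287 and an adjusted p of 1.0.

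The mean of *Ccne2* was below the young mean in both letters, with old to young ratios of 0.735 in letter A and 0.440 in letter B, where the 3 old mice (11.3 to 24.8) were all below the 3 young mice (37.0 to 46.1; exact permutation test, p = 0.1, the smallest possible). With the letter as a covariate the log2 difference in limma was -0.83 ± 0.26 (SE, unadjusted p = 0.00316, adjusted p = 0.318). Without old mice 5 and 7 it was -0.81 (adjusted p = 0.658). Between 25 and 235 reads lay behind these values. *Ints8* overlaps 17.4% of the exon bases of *Ccne2* on the opposite strand and had 77.0 ± 22.6 in young mice (SD, n = 5) and 55.9 ± 14.6 in old ones (SD, n = 7). The part of shared reads in the difference of *Ccne2* was not tested.

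*Ccne1* (chr7:38097984-38107534, minus strand), the other E-type cyclin, was the least abundant of the 10 genes, with 13 to 91 reads per mouse. It had 17.3 ± 5.57 in young mice (SD, n = 5) and 13.0 ± 7.90 in old ones (SD, n = 7) (exact permutation test, p = 0.314). Its highest values of 23.7 and 23.4 were in old mice 5 and 7, from 30 and 19 reads, with exact 95% Poisson intervals of 15.98 to 33.8 and 14.1 to 36.5, which cover counting error only. Old mouse 5 was at the same time the lowest of all mice for 6 of the 10 genes. Without these 2 mice the log2 difference of *Ccne1* in limma was -0.93 (unadjusted p = 0.0462, adjusted p = 0.803). The ratio of *Ccne1* to *Ccne2* did not differ beyond its spread (log2 difference 0.19, exact permutation test, p = 0.697).

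*Cdk2* (chr10:128697939-128705031, minus strand), the kinase that cyclin E activates, had 101.1 ± 26.5 in young mice (SD, n = 5) and 88.3 ± 22.2 in old ones (SD, n = 7) (exact permutation test, p = 0.391). Young mice spanned 70.7 to 143 and old mice 53.7 to 117, and the old values lay within or below the young range. The 95% interval of the log2 difference in limma was -0.65 to 0.26, and the difference was -0.04 without old mice 5 and 7.

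Of the pocket proteins, *Rb1* (chr14:73183673-73325822, minus strand), which holds back the activating E2F factors, had 79.6, 71.6, 74.6, 100.3 and 110.5 normalized reads in young mice 1 to 5. Old mice ranged from 60.8 to 132, with a median of 109. The means were 87.3 ± 17.1 (SD, n = 5) and 102 ± 28.0 (SD, n = 7), with 4 of the 5 highest values in old mice, and did not differ beyond their spread (exact permutation test, p = 0.298). The log2 difference in limma was 0.20, and 0.39 without old mice 5 and 7 (unadjusted p = 0.0467, adjusted p = 0.803).

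*Rbl1* (chr2:157145893-157204534, minus strand), a pocket protein that is itself an E2F target, had 155 ± 21.7 in young mice (SD, n = 5) and 137 ± 48.6 in old ones (SD, n = 7) (exact permutation test, p = 0.494). Both the lowest value, 54.5 in old mouse 5, and the highest, 212 in old mouse 3, were those of old mice. Its log2 difference of -0.26 in limma turned to 0.05 in letter B alone and to 0.04 without old mice 5 and 7.

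Within mice, the ratio of *Rb1* to *Rbl1* was 0.571 ± 0.118 in young mice (SD, n = 5) and 0.787 ± 0.176 in old ones (SD, n = 7) on the linear scale. In 4 of 7 old mice it was above all young mice. The log2 difference of 0.45 had p = 0.0240 in the exact permutation test and an adjusted p of 0.0600 over the 5 ratios, and so did not pass 0.05. Adjacent genes overlap the exons of *Rb1* on the opposite strand, *Rcbtb2* for 8.11% and *Lpar6* for 6.78% of its exon bases, while *Rbl1* shares no exon base with another gene.

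**Figure D4:**
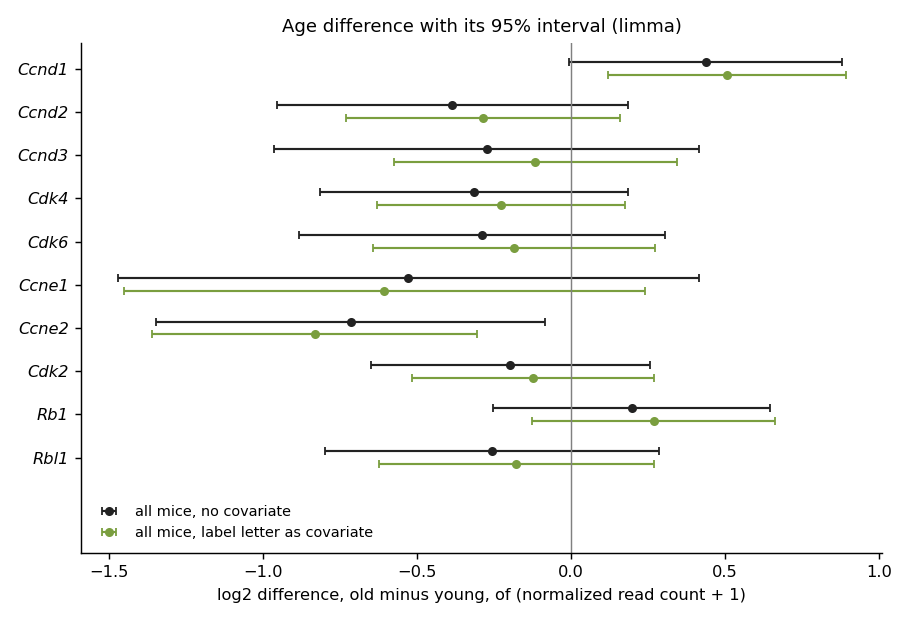
Log2 difference, old minus young, of each gene in limma, with its 95% interval, without a covariate (black) and with the letter added to the model (green). All black intervals except that of *Ccne2* (-0.71) include 0, while those adjusted for the letter of *Ccne2* (-0.83) and *Ccnd1* (0.51) do not include it.

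The mice differed more by label letter than by age. With age in the model, 4462 of 12354 genes (36.1%) differed between letters B and A at an adjusted p under 0.05 in limma, 1301 of them (10.5%) higher and 3161 (25.6%) lower in B. Of the 10 genes 5 were called. *Ccnd3*, *Cdk6*, *Ccnd2* and *Cdk4* were higher in letter B, by 0.93, 0.60, 0.58 and 0.51 on the log2 scale (limma, adjusted p = 0.00317, 0.0348, 0.0357 and 0.0426).

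*Ccne2* was lower in letter B by a log2 difference of -0.68 (limma, adjusted p = 0.0378). For *Ccnd3* the means were 113 ± 50.2 (SD, n = 6) in letter A and 201 ± 19.3 (SD, n = 6) in letter B. The letters overlapped for all 10 genes. Since depth followed the letter, letter, depth and whatever else the letter stands for cannot be told apart.

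How the libraries are scaled bears on these letter differences. Rescaling by median ratios moved the median of all genes from -0.09 to 0.21. The split of called genes became 3360 higher and 2541 lower, together 47.8% of all genes. The median of the 10 genes moved from 0.45 to 0.75, and 8 of them were called, all higher in B, while *Ccne2* was no longer called. Only *Ccnd3* was called in every alternative setting. The interaction of age and letter was called for 2 of all genes (0.0162%) and for 0 of the 10 genes (limma), of which 0 had an unadjusted p under 0.05.

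Further genes of the pathway were described by lists, each by its count and median, beside a median log2 age difference of -0.02 over all genes. In that limma fit over all mice, 3.95% of all genes had an unadjusted p under 0.05 and 0.105% were called. Of the 7 lists of pathway genes, the lowest median was that of E2F target genes of the G1/S step, which make and load the replication machinery. Of its 15 genes 12 had a row and were tested, and all 12 had a negative log2 age difference, with a median of -0.66 and a range from -0.91 to -0.25. None was called at an adjusted p under 0.05 in limma, and 9 of the 12 had an unadjusted p under 0.05.

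The smallest unadjusted p of that list belonged to *Uhrf1*, which maintains DNA methylation behind the replication fork (125 ± 27.8, n = 5, against 66.8 ± 18.8, n = 7, limma log2 difference -0.91, adjusted p = 0.256), *Cdt1*, a licensing factor (55.2 ± 10.7 against 31.6 ± 9.40, adjusted p = 0.603), and *Mcm6*, a subunit of the replicative helicase (338 ± 65.4 against 212 ± 52.7, adjusted p = 0.709). All 12 remained negative without old mice 5 and 7 (median -0.58), with the letter as a covariate (-0.59), in letter A alone (-0.35) and in letter B alone (-0.65). Neutrophil, monocyte and erythroid markers had age differences of opposite sign in the 2 letters. Neutrophil and monocyte markers had a median log2 age difference of 2.34 in letter A (6 of 6 tested positive, each with an unadjusted p under 0.05 in limma and 0 called) and of -1.35 in letter B (6 of 6 negative, 5 with an unadjusted p under 0.05 and 1 called). Of all genes, 2.57% in letter A and 8.05% in letter B had an unadjusted p under 0.05, and 0.00809% and 0.809% were called. Erythroid markers had medians of 1.198 (5 of 5 positive) and -0.86 (5 of 5 negative), with 0 called in either letter. The part of these markers in the differences of the E2F target genes was not tested.

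In letter B alone 4 were called lower (limma), namely *Ccna2*, *Uhrf1*, *Tyms* and *Mcm6*, with log2 differences from -1.26 to -0.64, which were named after their values were seen. Of the 12 genes, 11 had an unadjusted p under 0.05 there, beside 8.05% of all genes, and 100 of all 12354 genes (0.809%) were called. In letter A alone 0 of the 12 were called and 1 had an unadjusted p under 0.05, beside 2.57% of all genes, with 1 of all genes (0.00809%) called. The interaction of age and letter had an adjusted p of 1.0 for each of these 4 genes (limma).

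Proliferation markers had negative differences too, with 5 of 5 below 0, a median of -0.74, 3 with an unadjusted p under 0.05 and 0 called in limma. In letter A alone 4 of 5 were negative, with a range from -0.80 to 0.86, and 0 had an unadjusted p under 0.05. In letter B alone 5 of 5 were negative, all with an unadjusted p under 0.05 and 2 called, beside 8.05% and 0.809% of all genes. Without old mice 5 and 7 the median was -0.65 with 5 of 5 negative. In that limma fit 4 had an unadjusted p under 0.05 and 0 were called, beside 6.14% and 0.397% of all genes. Their summed normalized read count was 660 to 1439 in young and 499 to 1034 in old mice. *Mki67*, a marker of cycling cells, had 702 ± 199.9 (SD, n = 5) and 420.4 ± 170.5 (SD, n = 7). Of the 3 progenitor markers 2 were tested and both had negative differences. *Cd34*, which less primitive cells express, had 182 ± 53.0 (SD, n = 5) and 84.5 ± 10.4 (SD, n = 7), with a log2 difference of -1.04 (limma, adjusted p = 0.0544, or 0.00856 once the letter was in the model). The part of cell composition in the differences of *Ccne2* and of the E2F target genes was not tested.

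Of the E2F and DP factors with the third pocket protein *Rbl2*, 9 of 11 genes were tested, 0 were called, 2 had an unadjusted p under 0.05, 7 were negative, and the median was -0.06. *E2f1*, the activating factor that pocket proteins restrain, had 37.0 ± 9.72 in young mice (SD, n = 5) and 21.1 ± 8.07 in old ones (SD, n = 7) (limma log2 difference -0.83, adjusted p = 0.873). *E2f8*, the other gene with an unadjusted p under 0.05, had 64.3 ± 19.3 and 41.5 ± 13.6 (limma log2 difference -0.66, unadjusted p = 0.0388). The 2 positive differences were those of *E2f2* (0.02) and *E2f4* (0.03). *Rbl2* had 381 ± 55.0 (SD, n = 5) and 384 ± 125 (SD, n = 7), a difference well within the spread.

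Inhibitors of the kinases were represented by 4 of 7 tested genes, of which 0 were called, 1 had an unadjusted p under 0.05 and 3 were negative, with a median of -0.42. In letter A alone the median was -0.45 with 3 negative, and in letter B alone -0.09 with 2 negative and 2 positive. Without old mice 5 and 7 it was -0.25 with 3 negative. With the letter as a covariate it was -0.39, and 0 had an unadjusted p under 0.05 in limma, beside 5.20% of all genes. *Cdkn1b* (p27), which binds cyclin-CDK complexes in resting cells, had 173 ± 39.7 (SD, n = 5) and 128 ± 32.3 (SD, n = 7), with a log2 difference of -0.44 (limma, adjusted p = 1.0). *Cdkn1c*, the 1 gene with a positive difference, had 68.6 ± 9.72 (SD, n = 5) and 80.0 ± 24.1 (SD, n = 7), with a log2 difference of 0.16. *Cdkn2a*, often measured as an ageing marker, was below the minimum mean for testing, at 1.76 to 7.69 in young and 1.27 to 20.52 in old mice.

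The other 4 lists had 0 genes called by limma and 0 with an unadjusted p under 0.05. Of the MuvB core with B-Myb 5 of 6 genes were tested, with a median of -0.23. Of the CDK-activating kinase, Cdc25 and Wee1 families 5 of 8 were tested, with a median of -0.18. G1 cyclin turnover (8 of 10 tested) had a median of -0.02, and regulators of D-type cyclin transcription (8 of 9 tested) had one of -0.18, which became 0.21 without old mice 5 and 7.

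**Figure D5:**
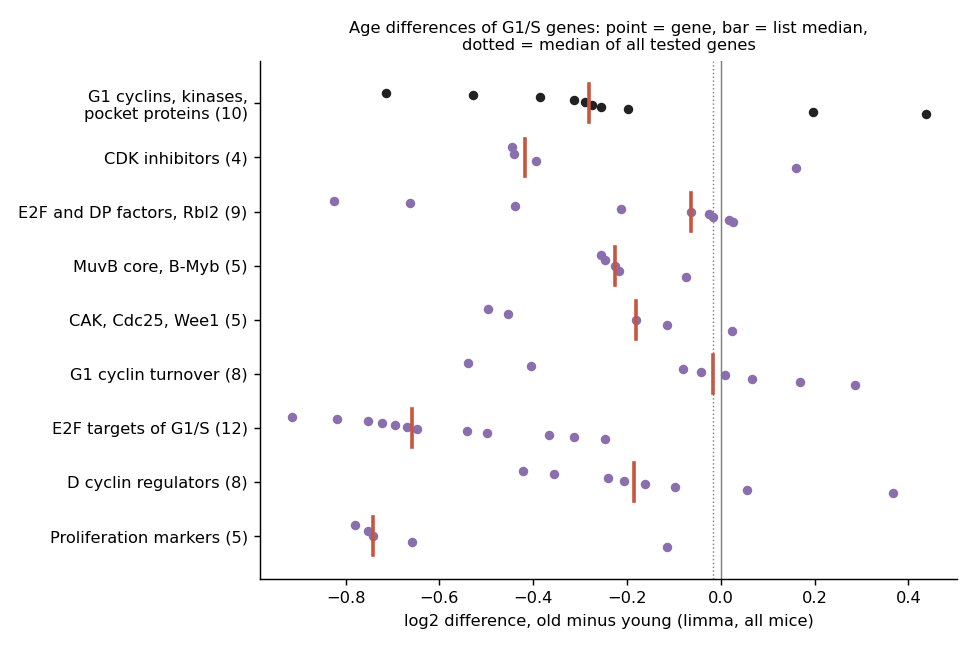
Log2 age difference (old minus young, limma, all mice) of each tested gene, by list, with a red bar for the list median and a dotted line for the median of all tested genes (-0.02). The 12 E2F target genes all lie below 0 with a median of -0.66, and among the 10 G1 genes only *Ccnd1* (0.44) and *Rb1* (0.20) lie above 0.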

How the data were processed

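The authors deposited 1 table with a normalized read count per gene and mouse, a signal made from reads per gene, the library size and a scaling factor. The submitters' processing notes name STAR 2.5.4b, edgeR 3.24.3 and mm10, without the counting settings. A deposited table of the authors' own comparison (log2 fold changes, p-values) was not used. The genes and lists were chosen with earlier results of these data known. Since 100% of the values were whole multiples of 1 read (within 0.02 reads), reads were recovered, and 3 reads equalled 0.583 to 3.69 normalized reads, depending on the mouse. Counting intervals cover counting error only.

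The main test was limma 3.58.1 in R 4.3.3 (lmFit, eBayes with trend) on log2(value + 1), for genes with a mean of at least 10. Single genes and ratios were compared by two-sided exact permutation tests over 792 splits. Alternatives were other pseudocounts and minimum means, eBayes without trend, the letter as a covariate, each letter by itself, a replicate block, median-ratio scaling, thinned reads, edgeR 4.0.16, DESeq2 1.42.0 and leaving out each mouse. The letter with median ratios, the letter in edgeR, and leaving out old mice 5 and 7 were chosen after seeing the data. Named genes were the 10 genes and, per pathway list, those called or otherwise up to 3 with the smallest p. *Rbl2*, *Cdkn2a* and the marker genes were named for their roles after their values were seen. *Cdkn1c*, *E2f2* and *E2f4* were named for their positive differences after their values were seen. Overlaps came from GENCODE vM21 (GRCm38), which held 18745 of 18762 identifiers. The limma fit and the permutation test were first run on simulated data. Mice are separate animals, and GO terms and proteins were not analysed here.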

Additional observations from a re-analysis of the deposited data

Results flagged for a closer look

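Of 30 groups of mice tested for a value apart (10 genes and 5 ratios in 2 ages), 2 were flagged, where chance gives 1.5. The normalized read count of *Ccnd2* in young mouse 2 was 341, far below the other young mice (519 to 572), and this mouse carries letter A. The log2 ratio of *Cdk6* to *Cdk4* in young mouse 4 was 1.79, above the other young mice (1.14 to 1.30), and this mouse had the highest *Cdk6* of all, 971 normalized reads.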

How the results depend on the processing

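Under all 30 alternatives to the age comparison, 0 of the 10 genes were called, though *Ccne1* was not tested at a minimum mean of 30. Of the single log2 differences, 296 kept their direction. The 3 exceptions were *Ccnd3* (0.13) and *Rbl1* (0.039) without old mice 5 and 7 and *Rbl1* (0.050) in letter B alone. The count over all genes, 13, was 22 at a minimum mean of 30, 2 without trend, 37 with the letter as a covariate, 1 in letter A, 100 in letter B, 5 after rescaling by median ratios, 58 in DESeq2, 32 with the letter and median ratios, 43 in edgeR with the letter, 49 without old mice 5 and 7, and 3 to 32 when each mouse was left out. The replicate block over replicates 1 to 5 called 19 genes, against 8 in the same mice without it. Same-numbered mice are different animals and correlated by -0.559 to 0.615 in 5 pairs, over 0.1 in 3 of them, and 2 of 5 young mice correlated best with their own number.

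By letter, 8 of the 10 genes were called after rescaling, beside 47.8% of all genes, and 3 with thinned reads, beside 30.9%. When a mouse was left out 1 to 7 were called, with 1 left without young mouse 2 or 4 or old mouse 4 or 7. All genes called then numbered 2943 (23.8%, without young mouse 2) to 5003 (40.5%). The interaction called 0 to 6 genes when a mouse was left out. The log2 ratio of *Ccnd1* to *Ccnd2* differed by 1.14 in letter A and 0.48 in letter B, where too few mice can pass the threshold, and by 0.72 to 0.88 when each mouse was left out. That of *Rb1* to *Rbl1* ranged from 0.36 to 0.56 and passed without young mouse 5, old mouse 1 or old mouse 3 (adjusted p 0.0303 to 0.0433, exact permutation tests). The differences of *Cdk6* to *Cdk4* (-0.026 to 0.14 when each mouse was left out, -0.0048 in letter B) and *Ccne1* to *Ccne2* (-0.020 to 0.46, and -0.13 without old mice 5 and 7) changed sign. The cause of these changes was not tested. In the shallowest mouse, 3 reads equal 3.69 normalized reads, which limits *Ccne1* most.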
